A study of Mus musculus with 4 samples.

Results

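The matrix metalloproteinases Mmp2, Mmp12, Mmp13 and Mmp14 and the tissue inhibitors of metalloproteinases Timp1, Timp2 and Timp3 were examined in mouse liver. These 7 of the 19465 measured genes were chosen by name, and each symbol stood for 1 gene of the matrices. RNA had been captured from formalin-fixed, paraffin-embedded sections on Visium arrays, in which each spot covers a small area that holds several cells. There were 4 sections, 1 from each of 4 mice: 1 Hk2-deleted fibrotic, 2 fibrotic and 1 healthy.

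The Hk2-deleted fibrotic mouse had the genotype PDGFRBcreERT2/Hk2fl/fl. It carried floxed Hk2, which encodes a hexokinase, and a Cre recombinase under control of the Pdgfrb promoter, whose activity in liver is known from stellate cells and other mural cells such as pericytes. It was the only mouse with Cre, so Cre and the deletion cannot be told apart. The fibrotic mice and the healthy mouse were HK2fl/fl without Cre. All 4 mice were labelled male and aged 5 months. All had received tamoxifen at 75 mg/kg on 5 days, followed by a wait of 2 weeks. The Hk2-deleted and fibrotic mice were then injected 2 times a week with carbon tetrachloride (CCl4), a hepatocyte toxin, at 1 µL/g, and the healthy mouse was given olive oil. For the length of CCl4 dosing the labels differ, with 6 weeks in the series' design and 4 or 6 in the protocol of the samples.

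Metalloproteinases are zinc enzymes that cut collagen, elastin and other matrix proteins, and the Timp proteins block their catalytic site. Most are secreted as inactive proenzymes. In the best known activation chain, Mmp14 on the cell membrane binds Timp2, and this pair recruits pro-Mmp2 so that a neighbouring Mmp14 can cut it. In fibrotic liver, stellate cells and portal fibroblasts are known sources of Mmp2, Mmp14 and the Timp genes, and scar-associated macrophages are known sources of Mmp12 and, in mice, of Mmp13.

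Section totals were 65179106 UMIs over 3865 spots (Hk2-deleted), 67479047 over 4134 (fibrotic replicate 1), 40585039 over 2577 (fibrotic replicate 2) and 54031683 over 3064 (healthy). Levels are given in CPM, the usual counts-per-million scale, as UMIs of a gene over all UMIs of the section or of the spots named, and intervals of 95% cover counting error only. Probes differ in efficiency, so levels are compared within a gene and not between genes. Hk2 itself had 3.50 CPM in the Hk2-deleted liver, against 4.88 and 3.94 CPM in fibrotic replicates 1 and 2 and 1.85 CPM in the healthy liver. The contrast of Hk2 between Hk2-deleted and fibrotic sections was -0.38 ± 0.33 on the log2 scale (edgeR, adjusted p = 1.00), in whole sections that also hold Hk2 from cells without Cre. Fibrotic replicate 1 stood apart: the Y-linked transcripts Eif2s3y and Ddx3y were at 0.578 and 0.415 CPM there, against 62.1 to 69.9 and 47.0 to 52.4 in the other sections. Surface spots, defined as spots holding or next to a UMI of the mesothelial genes Msln or Upk3b, were 31.0% of spots in the Hk2-deleted liver, 33.3% and 2.29% in fibrotic replicates 1 and 2 and 12.8% in the healthy liver. Results are given without fibrotic replicate 1, or without surface spots, where either changes them. The hepatocyte markers Alb, Apoa1, Ttr and Serpina1a together made up 98638 CPM in the Hk2-deleted liver, 157482 and 138566 in fibrotic replicates 1 and 2 and 186240 in the healthy liver.

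In GRCm38.p6, Mmp13 lies at chr9:7272514-7283333 and Mmp12 next to it at chr9:7344397-7360461. Mmp2 lies at chr8:92827290-92853421, Mmp14 at chr14:54431598-54442456, Timp1 at chrX:20870166-20874737, Timp2 at chr11:118301061-118355411 and Timp3 at chr10:86300412-86349505. RefSeq promoter entries were at hand for 6 of the 7 genes, and Mmp12 had 2 start sites. The 250 bases before the start are shown for 4 genes that differed below in where they were found: Mmp13 and Mmp12, and then Mmp14 and Timp2. Capitals mark 3 short motifs searched on both strands, TGANTCA (the AP-1 site), GGGCGG (the GC box) and TATAAA.
Mmp13, chr9:7272264-7272513, plus strand: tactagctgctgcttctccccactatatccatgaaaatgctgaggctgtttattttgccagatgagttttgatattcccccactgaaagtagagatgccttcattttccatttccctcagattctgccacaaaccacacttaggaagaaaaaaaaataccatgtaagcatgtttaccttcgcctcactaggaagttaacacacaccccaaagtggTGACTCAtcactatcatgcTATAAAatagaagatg
Mmp12, second start, chr9:7347124-7347373, plus strand: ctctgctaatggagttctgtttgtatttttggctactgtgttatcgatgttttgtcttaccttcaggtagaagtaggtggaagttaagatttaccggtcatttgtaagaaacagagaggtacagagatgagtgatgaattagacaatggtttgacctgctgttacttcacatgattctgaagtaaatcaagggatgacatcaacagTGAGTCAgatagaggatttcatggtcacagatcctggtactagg
Mmp14, chr14:54431348-54431597, plus strand: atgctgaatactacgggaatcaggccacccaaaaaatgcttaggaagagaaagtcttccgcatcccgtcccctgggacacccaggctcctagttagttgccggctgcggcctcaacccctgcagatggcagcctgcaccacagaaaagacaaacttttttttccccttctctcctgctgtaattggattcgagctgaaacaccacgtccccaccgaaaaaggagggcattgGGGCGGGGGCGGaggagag
Timp2, chr11:118355412-118355661, minus strand: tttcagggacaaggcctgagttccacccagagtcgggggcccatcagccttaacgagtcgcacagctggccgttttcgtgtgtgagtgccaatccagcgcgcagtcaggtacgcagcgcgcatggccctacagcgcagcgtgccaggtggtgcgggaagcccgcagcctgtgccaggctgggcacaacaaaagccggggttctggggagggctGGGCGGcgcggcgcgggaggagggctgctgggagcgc

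The AP-1 letters began 35 bases before the Mmp13 start and 44 before the second Mmp12 start. They were in neither the first Mmp12 window nor the windows of Mmp14, Timp1, Timp2 and Timp3, and 6.75% of all 32851 windows of the same length held them. The GC box letters were in the windows of Mmp14, Timp1, Timp2 and Timp3 and in 32.7% of all windows, and not in those of Mmp12 or Mmp13. TATAAA was in the Mmp13 window and in 12.4% of all windows. These matches describe letters and were not tested as binding sites.

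The first comparison was of whole fibrotic sections with the healthy section, which addresses how CCl4 fibrosis and matrix turnover genes go together. In whole sections, more cells of a type and more RNA per cell cannot be told apart. Of the 7 genes, 6 were higher in the fibrotic sections, 4 of 4 proteases and 2 of 3 inhibitors, and none was lower, where 9.64% of the 14125 genes tested were called higher, 4.01% lower and 13.7% in either direction (edgeR quasi-likelihood test, adjusted p under 0.05).

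Mmp2, gelatinase A, was at 85.7 and 47.2 CPM in fibrotic replicates 1 and 2, 49.2 in the Hk2-deleted liver and 3.46 in the healthy liver. Both fibrotic sections and the Hk2-deleted one lay far above the healthy section, and the fitted contrast of fibrotic with healthy was 3.91 ± 0.30 on the log2 scale (SE, adjusted p = 4.86e-08). Mmp12, the macrophage elastase, was at 50.6 and 15.1 in the fibrotic sections, against 0.500 in the healthy section, where 27 UMIs were counted. Its contrast of 5.66 ± 0.53 (adjusted p = 6.25e-07) had the largest size among the 7 genes, although its fibrotic sections differed more than 3-fold. Mmp13, a collagenase that cuts fibrillar collagen, was at 10.1 and 4.93 against 0.629, a contrast of 3.22 ± 0.42 (adjusted p = 2.46e-05). Mmp14, the membrane protease that activates pro-Mmp2, was already measured in the healthy section at 22.3 and was at 68.2 and 45.8 in the fibrotic sections, a contrast of 1.01 ± 0.23 (adjusted p = 0.0048).

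Among the inhibitors, Timp2, the partner of Mmp14 and pro-Mmp2, was at 108 and 78.0 in fibrotic livers and 25.9 in the healthy liver, a contrast of 1.50 ± 0.24 (adjusted p = 0.000247). Timp1, an inducible secreted inhibitor, had few UMIs: 115 and 35 in fibrotic replicates 1 and 2, 172 in the Hk2-deleted liver and 8 in the healthy liver. Its levels were 1.70 and 0.862 CPM in the fibrotic sections, against 0.148 (0.0639 to 0.292) in the healthy section, and the contrast was 2.76 ± 0.65 (adjusted p = 0.0070). Timp3, the inhibitor that binds to the matrix, was at 71.4 and 55.1 in fibrotic livers and 46.1 in the healthy liver. Once scaled by TMM, this was a contrast of 0.12 ± 0.21 (adjusted p = 0.771), which did not pass. With library sizes in place of TMM, the median of all genes moved to 0.34 and Timp3 was at 0.46 (adjusted p = 0.124), also short of the threshold.

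**Figure D1:**
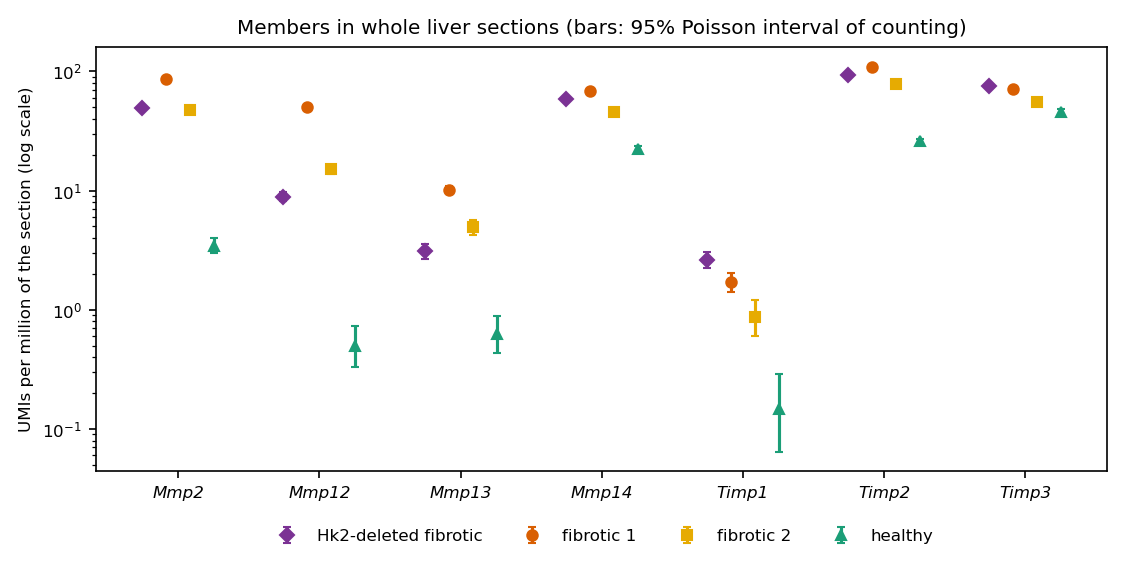
CPM of each gene (log axis) in the Hk2-deleted fibrotic section (diamonds), fibrotic replicates 1 (circles) and 2 (squares) and the healthy section (triangles), with 95% Poisson intervals. The healthy section is lowest for each gene, from Timp3 at 46.1 against 55.1 and 71.4 in the fibrotic sections to Mmp12 at 0.500 against 15.1 and 50.6.

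The same 6 genes were called when fibrotic replicate 1 was left out and the Hk2-deleted section took its place in the CCl4 group, where 8.59% of 13868 genes were called higher: Mmp12 was then at 4.28 (adjusted p = 0.00525) and Timp1 at 3.23 (adjusted p = 0.0470). With fibrotic replicate 2 alone against healthy, Mmp12 was at 4.67, and with replicate 1 alone at 6.21, values that have no test. The lone healthy section gives no spread of its own, so it was assumed to vary like the fibrotic pair.

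Other proteases and inhibitors of the matrix, read from a list of 31 genes, were higher in 12 and lower in none of the 27 tested, with a median log2 contrast of 1.07 against 0.00 over all genes. Mmp8, the neutrophil collagenase, was at 5.59, Mmp7, a small metalloproteinase known as matrilysin, at 5.21, Mmp25, a membrane-bound metalloproteinase of leukocytes, at 4.35 and the plasminogen activator Plat at 3.17. The summed level of 6 neutrophil markers moved alongside: 592 and 1182 CPM in fibrotic replicates 1 and 2 and 17.8 in the healthy liver. The 8 recruited macrophage markers summed to 334 and 229, against 54.2, and the 12 fibroblast markers to 2203 and 1119, against 204. The part of these cell types in the gene contrasts was not tested.

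The second comparison set the Hk2-deleted section against the fibrotic sections, the study's intervention. Mmp12 alone among the 7 genes was called, and it was lower in the Hk2-deleted section. Its level was 8.90 CPM (8.19 to 9.65) in the Hk2-deleted liver, against 50.6 and 15.1 in fibrotic replicates 1 and 2, so the Hk2-deleted section lay below both. The contrast was -1.89 ± 0.39 (edgeR, adjusted p = 0.0421), where 0.085% of the 14125 genes were called lower, 0.142% higher and 0.227% in either direction. The call was lost with DESeq2 (adjusted p = 1.00), with another scaling (0.0678) and without surface spots (0.426), while the contrast itself was -1.90 with DESeq2, -1.90 with the other scaling and -1.92 without surface spots. Without fibrotic replicate 1 the contrast was -0.91 and without replicate 2 it was -2.46, neither with a test. As the lone Hk2-deleted section gives no spread of its own, it was assumed to vary like the fibrotic pair.

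Mmp13 was likewise lowest among the CCl4-treated sections in the Hk2-deleted one, at 3.08 against 10.1 and 4.93, but its contrast of -1.31 ± 0.35 did not pass (adjusted p = 0.248). Mmp2 was at -0.46 ± 0.24, Mmp14 at 0.01 ± 0.21, Timp2 at -0.03 ± 0.22 and Timp3 at 0.20 ± 0.21 (adjusted p = 1.00 each). The Hk2-deleted values of Mmp14 and Timp2 lay between those of the fibrotic sections, and that of Timp3 lay above both. For Mmp2 the order depended on the scale: its Hk2-deleted value lay between the fibrotic ones in CPM, but below both after TMM scaling, at 45.1 against 76.3 and 48.1. Timp1 was at 2.64 CPM in the Hk2-deleted section, against 1.70 and 0.862, a contrast of 0.99 ± 0.47 (adjusted p = 1.00). Of the other matrix protease genes, 1 of 27 was called: Mmp7 was lower, at -1.92 ± 0.36 (adjusted p = 0.0190). The macrophage marker sum was 220 CPM in the Hk2-deleted liver, against 334 and 229 in fibrotic replicates 1 and 2.

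**Figure D2:**
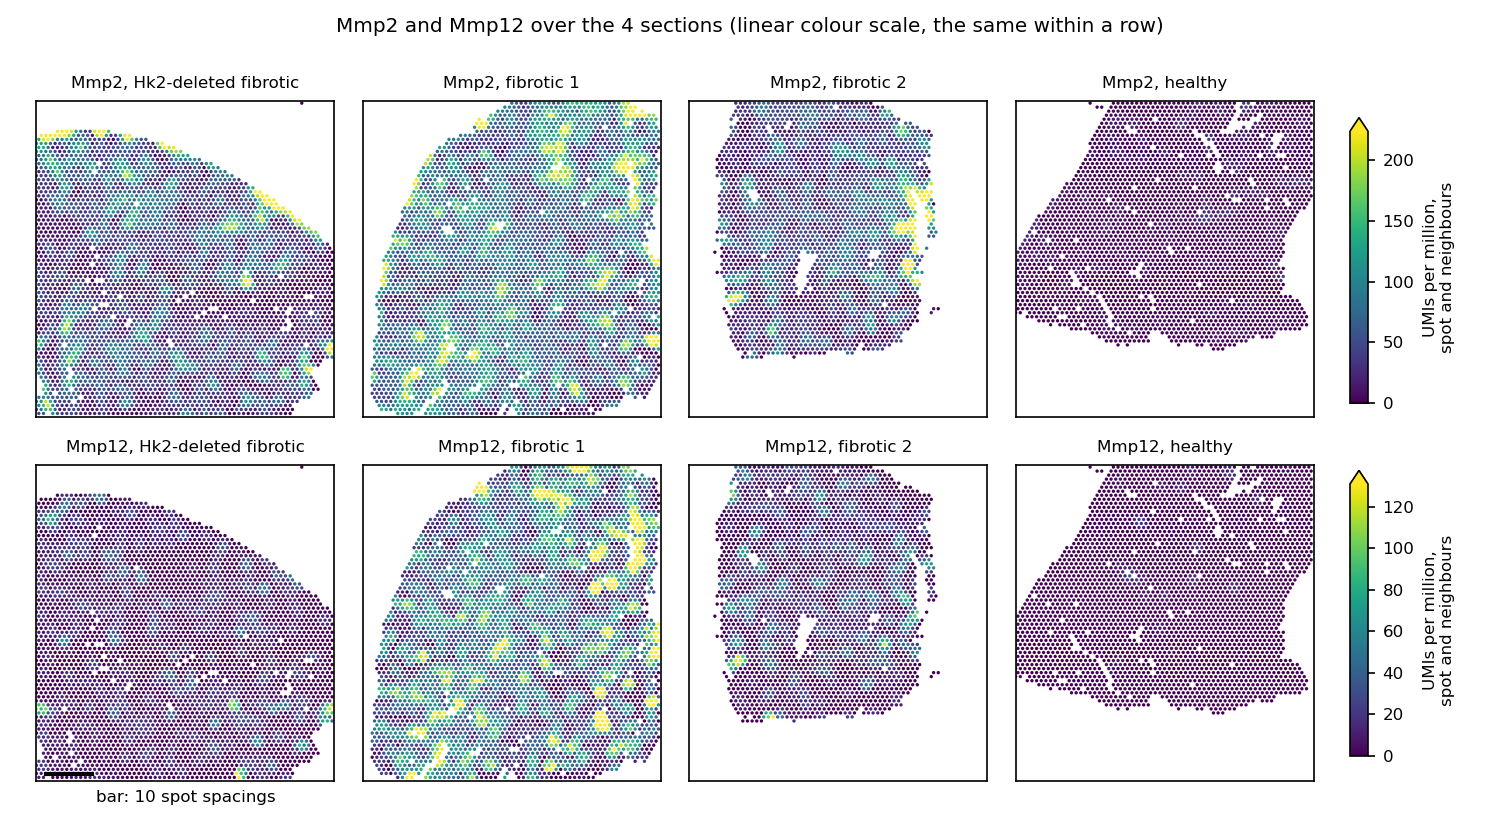
CPM of Mmp2 (upper row) and Mmp12 (lower row) over each section, each spot summed with its direct neighbours, with 1 linear colour scale for each row. In the Hk2-deleted section Mmp2 was brightest along the curved edge, and Mmp12 was brightest in fibrotic replicate 1, where the median over spots was 41.4, against 10.9 in fibrotic replicate 2 and 7.06 in the Hk2-deleted section.

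Location was then followed along the liver lobule. Blood enters a lobule at the portal tracts and leaves by the central vein, and CCl4 injures hepatocytes around the central vein, where the enzyme that activates it is made. Spots of each section were ranked by pericentral landmarks (Cyp2e1 and 7 others) minus 12 periportal ones (such as Cyp2f2), and divided into 3 equal groups, called the pericentral, middle and periportal zone. The outer zones were compared with section as a block. Of the 7 genes, 3 were higher and none was lower in the pericentral zone over all 4 sections, where 7.12% of 13082 genes were called higher, 5.99% lower and 13.1% in either direction.

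Mmp12 was at 15.9 CPM in the pericentral and 4.41 in the periportal zone of the Hk2-deleted section, at 79.6 and 19.3 in fibrotic replicate 1, at 27.9 and 6.32 in replicate 2 and at 0.513 and 0.352 in the healthy section. Its contrast was 1.73 ± 0.11 (edgeR, adjusted p = 0.000233), and the healthy zones held only 7 and 8 UMIs. Mmp2 was at 93.7 and 24.0 in the Hk2-deleted section, 129 and 41.3 in replicate 1, 89.0 and 19.6 in replicate 2 and 4.03 and 3.08 in the healthy section. The ratio was thus 3.11 to 4.53 in the CCl4-treated sections, and the contrast 1.52 ± 0.18 (adjusted p = 0.00278). Timp2 followed with 0.73 ± 0.20 (adjusted p = 0.0467), a call lost without the Hk2-deleted section (0.263), without fibrotic replicate 1 (0.213) or 2 (0.247) and without surface spots (0.0677).

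Without the healthy section, 6 of the 7 genes were higher pericentrally, in a fit that called 20.5% of 13057 genes higher: Mmp13 then stood at 1.06, Mmp14 at 0.59, Timp1 at 1.12 and Timp2 at 0.99, while Timp3 at 0.16 was not called (adjusted p = 0.0947). The middle zone lay between the others for Mmp2, Mmp12, Mmp13, Mmp14 and Timp2 in each of the 3 CCl4-treated sections. Without collagen-rich spots, defined below, Mmp12 kept a contrast of 1.70, whereas Mmp2 was at 1.24, Timp2 at 0.48 and Timp1 at 0.21 (adjusted p = 0.724).

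**Figure D3:**
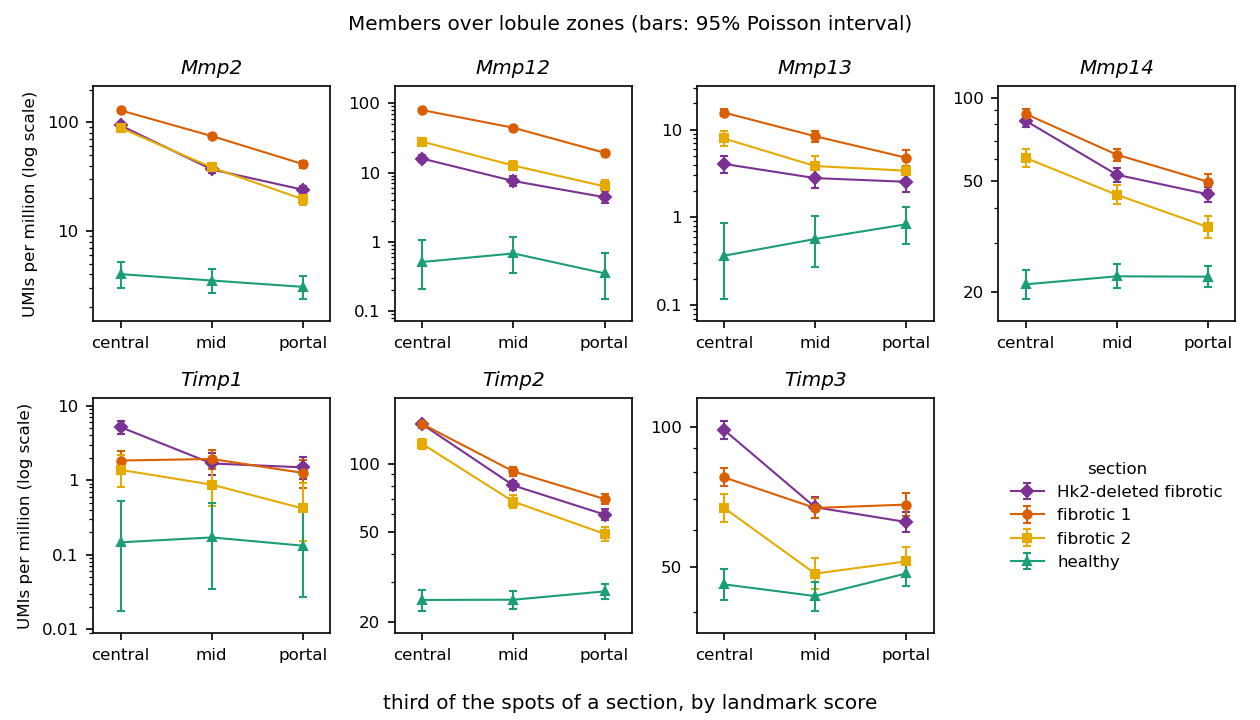
CPM of each gene (log axis) in the pericentral, middle and periportal zone, 1 line for each section, with 95% Poisson intervals. The CCl4-treated sections are higher in the pericentral zone for Mmp2, Mmp12, Mmp13, Mmp14 and Timp2, as in Mmp12 at 79.6 against 19.3 in fibrotic replicate 1, and the pericentral over periportal ratios of these genes in the healthy section are 0.438 to 1.46.

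The slope itself was compared between the CCl4-treated sections and the healthy section. It was steeper towards the central vein with CCl4 for 4 of the 7 genes, where 8.26% of 13364 genes were called in that direction and 18.7% in either. Timp2 was 2.15 to 2.51 times as high in the pericentral as in the periportal zone of the CCl4-treated sections and 0.92 times in the healthy section, a difference of 1.24 ± 0.13 on the log2 scale (edgeR, adjusted p = 7.29e-06). Mmp14 had ratios of 1.76 to 1.84 against 0.94 (difference 0.80 ± 0.12, adjusted p = 0.000258), and Mmp2 ratios of 3.11 to 4.53 against 1.31 (1.36 ± 0.34, adjusted p = 0.00871). Mmp13 differed by 2.35 ± 0.77 (adjusted p = 0.0409), and its call was lost with DESeq2 (0.0979), without surface spots (0.0976) and without fibrotic replicate 2 (0.0591). When collagen-rich spots were left out, the calls fell to 2 of the 7 genes, and the number called over all genes fell as well. Mmp12, with ratios of 3.60 to 4.42 against 1.46, did not pass (1.35 ± 0.70, adjusted p = 0.211), and the counting interval of the healthy ratio was 0.450 to 4.60. There was 1 healthy section, whose slope was assumed to vary like the others.

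In the list of other matrix protease genes, 12 of the 25 tested were higher and 1 was lower in the pericentral zone. Over all genes, 7.12% were called higher and 5.99% lower. Plat was at 1.42, Mmp25 at 1.40, Mmp7 at 1.40 and the collagen-cutting cathepsin Ctsk at 1.33, while Plg, the plasminogen made by hepatocytes, was at -0.42. The fibroblast marker sum was 1881 to 3118 CPM in the pericentral zone of the CCl4-treated sections, against 578 to 1225 in the periportal zone. The macrophage marker sum was 334 to 467 against 123 to 192, and in the healthy section it was 46.7 against 56.4.

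Collagen-rich spots were the 10% of spots of a section in which the UMIs of Col1a1, Col1a2 and Col3a1 took the largest share. Between 71.6% and 81.0% of them lay in the pericentral zone in the livers given CCl4. All but Mmp13 of the 7 genes were higher there than in the other spots, in a comparison in which 21.7% of 13493 genes were called higher and 43.6% in either direction, so a call was common.

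Mmp2 was at 168 CPM in collagen-rich and 36.6 in other spots of the Hk2-deleted section, at 204 and 70.8 in fibrotic replicate 1 and at 151 and 37.4 in replicate 2, a contrast of 1.58 ± 0.09 (edgeR, adjusted p = 5.62e-08). In the healthy section, which was described only, it was at 8.96 and 2.94. Timp2 was at 294 and 72.3, 253 and 89.5, and 202 and 66.1 in the same CCl4-treated sections (1.39 ± 0.08, adjusted p = 3.89e-08). Within each CCl4-treated section, both genes were higher in collagen-rich than in other spots.

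Timp1 had the largest contrast of the 7, at 2.27 ± 0.34 (adjusted p = 9.93e-05), from 15.4 against 1.29 CPM in the Hk2-deleted section, 4.75 against 1.32 in replicate 1 and 1.98 against 0.756 in replicate 2. It was at 1.43 without the Hk2-deleted section and also at 1.43 without surface spots, still called in both. Timp3 was at 0.85 ± 0.09, Mmp14 at 0.77 ± 0.07 and Mmp12 at 0.79 ± 0.09 (each called). Mmp13 was at 2.56 against 3.14 in the Hk2-deleted section, 14.9 against 9.48 in replicate 1 and 10.5 against 4.40 in replicate 2, so its sections did not run the same way. Its contrast was 0.31 ± 0.21 (adjusted p = 0.246), and 0.53 (adjusted p = 0.0172) without the Hk2-deleted section.

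**Figure D4:**
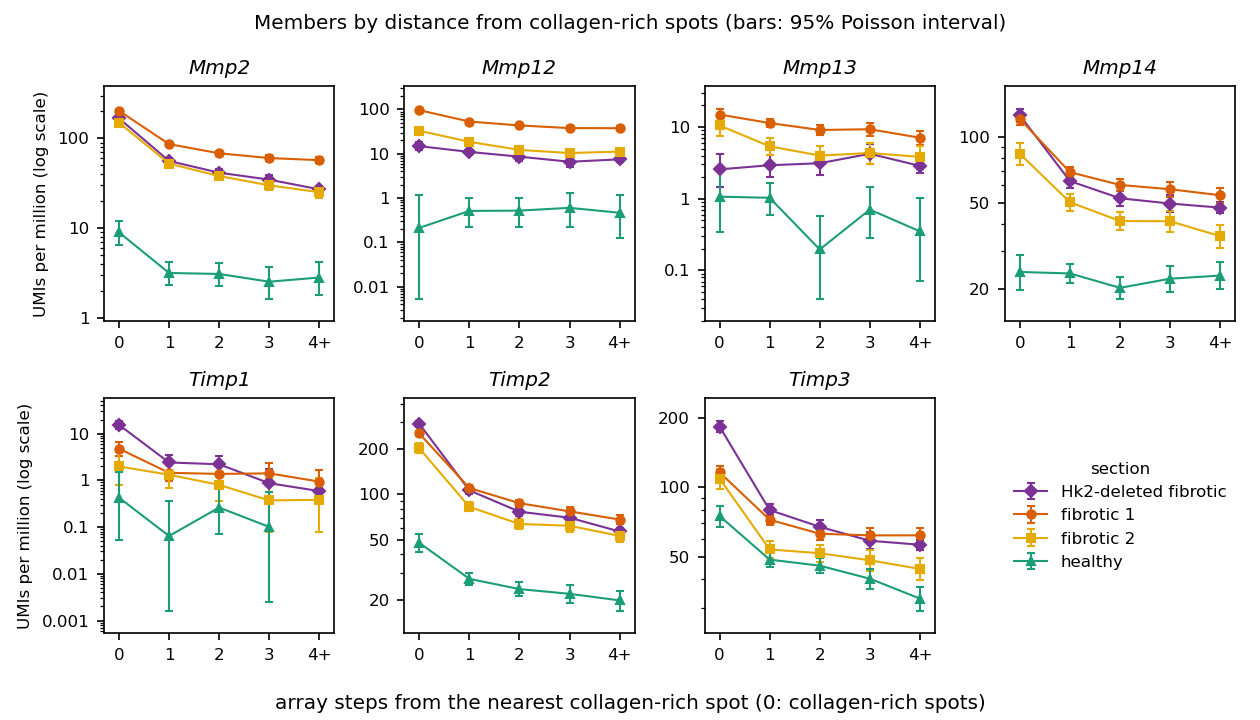
CPM of each gene (log axis) in collagen-rich spots (0) and in spots 1, 2, 3 and 4 or more array steps away, 1 line for each section, with 95% Poisson intervals; healthy Timp1 at 4 or more steps had no UMI and is not drawn. Timp2 in the Hk2-deleted section is at 294 in collagen-rich spots, 106 a step away and 56.8 at 4 or more steps, while Mmp12 in fibrotic replicate 1 is at 96.4, 53.4 and 37.8.

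Levels were lower farther from collagen-rich spots for most members. Mmp2 in spots 1 step away was 1.51 to 2.08 times that at 4 or more steps in the CCl4-treated sections, Timp2 1.56 to 1.87 times and Mmp12 1.41 to 1.66 times. Timp3 had ratios of 1.17 to 1.41, and Mmp13 of 1.02 to 1.60. These ratios are descriptions of neighbouring spots of the same sections, and no test was made.

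Of the other matrix protease genes, 16 were higher and 5 lower of 25 tested in collagen-rich spots. Over all genes, 21.7% were called higher and 21.9% lower, so the count of lower genes was near the share over all genes. The median contrast was 0.75, against 0.01 over all genes. Mmp3, a stromelysin, was at 2.22, Mmp7 at 2.03, Plat at 1.68 and Ctsk at 1.65. Plg was at -0.64, the proprotein convertase Furin at -0.42, Mmp19 at -0.41 and the lysosomal cathepsin Ctsl at -0.38.

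Whether this concentration differed with Hk2 deletion was tested as an interaction. It was stronger in the Hk2-deleted section for 4 genes, Mmp2 (0.44 ± 0.10, adjusted p = 0.00387), Timp1 (1.79 ± 0.43, 0.00534), Timp2 (0.43 ± 0.10, 0.00141) and Timp3 (0.55 ± 0.10, 4.84e-05), where 1.09% of 13954 genes were called in that direction and 1.27% in either (edgeR). DESeq2 called none of Mmp2, Timp2 and Timp3 and gave no adjusted p for Timp1. Without surface spots none of the 4 was called, but 3 kept much of their size: Mmp2 was at 0.37 (adjusted p = 0.553), Timp2 at 0.41 (0.148) and Timp3 at 0.49 (0.0795), while Timp1 was at 0.92 (0.945). Without fibrotic replicate 1, Mmp2 was at 0.16, with no test. The lone Hk2-deleted section gives no spread of its own, so its contrast was assumed to vary like those of the fibrotic pair. Surface spots made up 66.1% of the collagen-rich spots in the Hk2-deleted liver, against 49.0% and 2.33% in fibrotic replicates 1 and 2. Mmp12 (-0.36 ± 0.20) and Mmp13 (-1.18 ± 0.41) had the opposite sign and were not called (adjusted p = 0.608 and 0.167).

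Surface spots were defined by marker UMIs and not by position in the tissue. Timp1 had the highest share of its UMIs in surface spots among the 7 genes in both sections with many such spots. In the Hk2-deleted section 129 of its 172 UMIs, 75.0% (exact binomial interval 67.8% to 81.3%), lay in surface spots, which were 31.0% of spots. In fibrotic replicate 1 the share was 47.0% (37.6% to 56.5%), with 33.3% of spots being surface spots. For the other 6 genes the share was 27.9% to 44.5% in the Hk2-deleted section and 33.8% to 43.8% in fibrotic replicate 1. A single spot of the Hk2-deleted section held 8 Timp1 UMIs. Without surface spots, Timp1 was at 0.936 CPM in the Hk2-deleted liver, against 1.41 and 0.864 in fibrotic replicates 1 and 2, so the Hk2-deleted value then lay between them.

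Fibroblast-type and macrophage-type location were contrasted in the 3 CCl4-treated sections. Fibroblast-rich spots were the top 10% of a section by the mean z score of 12 fibroblast markers (such as Col1a1, Dcn and Pdgfra), and macrophage-rich spots the top 10% by 8 recruited macrophage markers (such as Gpnmb, Trem2 and Cd68). Spots in both sets, 30.5% to 36.4% of the fibroblast-rich ones, were left out of the contrast. The sets overlapped in content: the fibroblast sum was 2754 to 4673 CPM in fibroblast-rich spots, against 1341 to 2687 in macrophage-rich spots, and the macrophage sum 301 to 433 against 419 to 617. None of the 7 genes was used in the ranking. The 12 fibroblast markers included Col1a1, Col1a2 and Col3a1, the genes that defined collagen-rich spots. In the CCl4-treated sections, 57.6% to 62.1% of fibroblast-rich spots were also collagen-rich, so the 2 comparisons share many spots.

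Of the 7 genes, 5 were higher in fibroblast-rich spots, where 5.93% of 11928 genes were called higher, 5.91% lower and 11.8% in either direction: Mmp2, Mmp14 and the 3 inhibitors. Mmp12 and Mmp13 were not called in either direction.

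Mmp2 was at 124 CPM in fibroblast-rich and 53.1 in macrophage-rich spots of the Hk2-deleted section, at 174 and 114 in fibrotic replicate 1 and at 116 and 67.3 in replicate 2 (0.71 ± 0.08, edgeR, adjusted p = 7.65e-09). Timp2 was at 229 and 90.6, 220 and 130, and 177 and 115 in the same sections (0.78 ± 0.08, adjusted p = 7.06e-10). Both genes were higher in fibroblast-rich spots in 3 of 3 sections. Timp3 was at 0.51 ± 0.08 (adjusted p = 6.61e-06) and Mmp14 at 0.40 ± 0.08 (adjusted p = 0.000378). Timp1 was at 1.63 ± 0.42 (adjusted p = 0.0063), on 24 against 4 UMIs, 22 against 10 and 4 against 1. Timp1 was not tested without the Hk2-deleted section, without replicate 1 or without surface spots, where its counts were under the filter.

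Mmp12 was at 11.7 CPM in fibroblast-rich and 15.9 in macrophage-rich spots of the Hk2-deleted section, at 79.0 and 81.5 in replicate 1 and at 28.0 and 22.5 in replicate 2. The order thus differed between sections, and the contrast was -0.16 ± 0.10 (adjusted p = 0.359). Mmp13 was at 1.51 and 4.84, 17.4 and 15.8, and 7.26 and 6.24 (-0.21 ± 0.22, adjusted p = 0.646), on 7 to 91 UMIs a set.

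The calls of Mmp12 and Mmp13 depended on how spots were ranked. When spots were ranked by the share of their UMIs that came from each list, which gives weight to abundant markers such as Lyz2, Cd68 and Col1a1, Mmp12 was lower in fibroblast-rich spots (-1.03, adjusted p = 1.57e-08). It was then at 9.23 against 27.0 CPM in the Hk2-deleted section, 69.8 against 123 in replicate 1 and 25.4 against 42.9 in replicate 2, lower in 3 of 3 sections. Mmp13 was lower as well (-0.75, adjusted p = 0.0213), at 2.49 against 5.02, 14.2 against 23.7 and 10.4 against 12.3. By share, 5.07% of 11616 genes were called higher and 3.73% lower. The other 5 members were called higher under both rankings, with Mmp2 at 0.76 and Timp2 at 0.63 by share. The share ranking separated the macrophage marker sum further, to 273 to 410 CPM in fibroblast-rich against 604 to 803 in macrophage-rich spots.

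**Figure D5:**
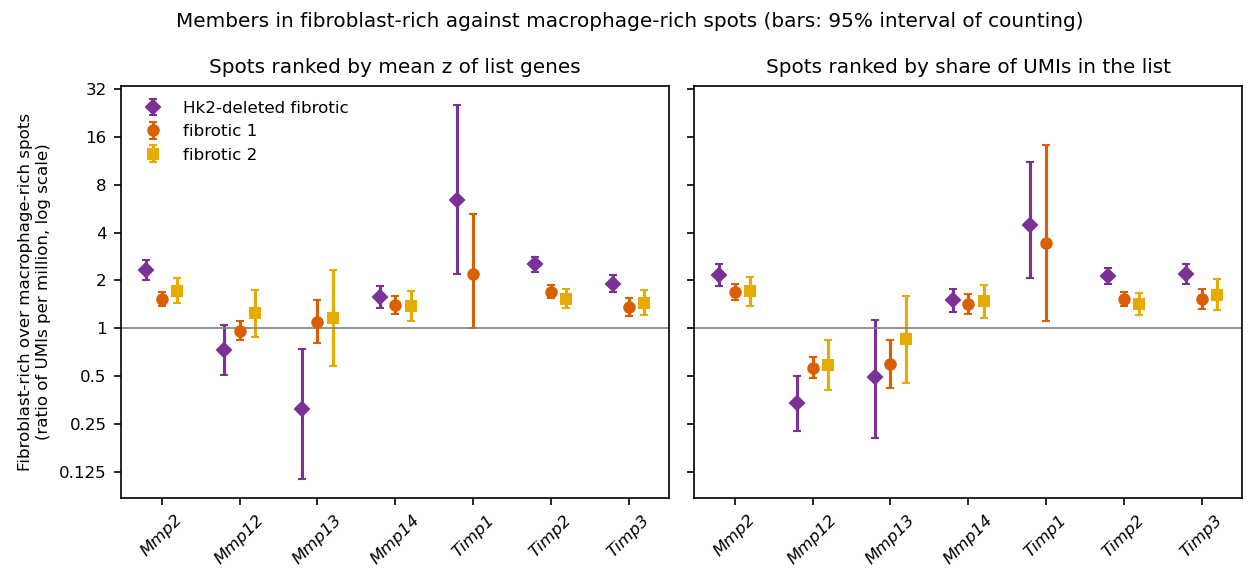
Ratio of CPM in fibroblast-rich over macrophage-rich spots (log axis, line at 1) for each gene in the 3 CCl4-treated sections, with 95% counting intervals, ranked by mean z score (left) and by share of UMIs (right). Mmp2, Mmp14, Timp2 and Timp3 lie above 1 in all sections in both panels, Mmp12 is at 0.73 to 1.24 on the left and 0.34 to 0.59 on the right, and ratios of Timp1 in fibrotic replicate 2 are not drawn because a set held 3 UMIs or fewer.

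Spots were also divided into 3 equal groups (low, middle and high) by each mean z score, a description added after the values above were seen and not tested. Among spots low in the fibroblast score, Mmp12 was 1.70, 1.74 and 1.61 times as high where the macrophage score was high as where it was low, in the Hk2-deleted section and fibrotic replicates 1 and 2. The counting interval lay above 1 only in replicate 1 (1.31 to 2.28). Among spots low in the macrophage score, Mmp12 was 3.44, 2.45 and 2.54 times as high where the fibroblast score was high as where it was low, and each interval lay above 1. Where both scores were high, Mmp12 was at 15.1, 84.8 and 25.5 CPM, against 3.26, 21.0 and 5.42 where both were low. Mmp2 had ratios of 0.84, 1.45 and 1.27 with the macrophage score and 2.66, 2.82 and 3.95 with the fibroblast score in the same way. The neutrophil marker sum also differed between these spots, at 1263, 866 and 2000 CPM where both scores were high and 211, 323 and 620 where both were low, and its part was not tested. Depth differed too. In fibrotic replicate 1, 847 spots high in both scores held 17686231 UMIs of all genes, and 797 spots low in both held 9598202. The part of depth was not tested either.

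Set against spots rich in Kupffer cell markers (Clec4f, Vsig4 and 5 others), the resident macrophages of the liver, all but Mmp13 of the 7 genes were higher in fibroblast-rich spots, where 16.8% of 12264 genes were called higher, 17.7% lower and 34.4% in either direction. Mmp12 was at 0.39 ± 0.10 (edgeR, adjusted p = 0.0079), a call lost with DESeq2 (0.253), without surface spots (0.152) and without fibrotic replicate 1 (0.213), and at -0.17 (adjusted p = 0.305) when ranked by share. Timp1 was at 2.94 ± 0.39 and Mmp2 at 1.47 ± 0.12. Mmp13 was at 0.32 ± 0.23 (adjusted p = 0.302). In macrophage-rich spots the kupffer marker sum was 1428 to 1774 CPM, so recruited and resident markers were both present there.

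Of the other matrix protease genes, 7 were higher and 2 lower of 23 tested in fibroblast-rich against macrophage-rich spots. Over all genes, 5.93% were called higher and 5.91% lower. Mmp25 was at 1.10, Mmp7 at 1.03, Mmp23 at 0.96 and Ctsk at 0.80, while Plg was at -0.28 and Furin at -0.20. Against Kupffer-rich spots, 14 were higher and 6 lower of 25 tested, led by Mmp3 at 3.93 and Mmp7 at 2.10. In that comparison 16.8% of all genes were called higher and 17.7% lower.

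Likeness in space was described over tiles of 6 by 12 array positions with at least 15 spots, 112 in the Hk2-deleted section, 123 in fibrotic replicate 1 and 75 in replicate 2. Tiles of a section share a library, so Pearson correlations of log2(level + 1) are given without p. The fibroblast and macrophage marker sums were themselves correlated over tiles, at 0.65, 0.67 and 0.86. Mmp2 had a mean correlation of 0.85 with the fibroblast sum and 0.73 with the macrophage sum, Timp2 of 0.86 and 0.60 and Mmp14 of 0.71 and 0.62. For Mmp2 and Timp2 the fibroblast value was the higher in 3 of 3 sections, whereas Mmp14 had 0.67 and 0.68 in fibrotic replicate 2. Timp3 was at 0.58 and 0.28, and at 0.57 with the sum of 4 smooth muscle markers. Mmp12 ran the other way, with 0.35 for the fibroblast and 0.52 for the macrophage sum. The macrophage value was the higher in 3 of 3 sections, but only narrowly in fibrotic replicate 2, at 0.49 against 0.46. Mmp13 had 0.17 and 0.23, and with its few UMIs a tile these are weak values.

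The 3 genes most like each member over tiles, by mean correlation, were taken from those at 10 or more CPM. They were the proteoglycan Lum (0.86), Igfbp7 (0.83) and the proteoglycan Bgn (0.83) for Mmp2, and the collagens Col1a2 (0.84), Col1a1 (0.84) and Col3a1 (0.83) for Timp2. Igfbp7 (0.72), Col1a1 (0.70) and Lum (0.69) came first for Mmp14, and the matrix gene Dpt (0.64), the calcium-binding S100a6 (0.63) and Bicc1 (0.63) for Timp3. For Mmp12 they were Ctsd (0.53), Gpnmb (0.50) and Lgals3 (0.48), a lysosomal protease, a lysosomal glycoprotein and a galectin that macrophages make. For Timp1 they were Saa3 (0.40), an acute phase gene, Col1a1 (0.37) and Gpx3 (0.37). The correlation of Timp1 with Saa3 was 0.66 in the Hk2-deleted section, and 0.31 and 0.22 in fibrotic replicates 1 and 2. With Col1a1 it was 0.63, 0.36 and 0.12 in the same order. Mmp13 had Eef2 (0.32), Eloa (0.32) and Tpt1 (0.32), which are broadly expressed.

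Between members, the highest mean correlation was that of Mmp2 with Timp2 (0.72), followed by Mmp2 with Mmp14 (0.64) and Mmp14 with Timp2 (0.63), the 3 genes of the activation chain. Timp2 with Timp3 was at 0.58. Mmp12 with Mmp13 was at 0.28, with 0.54 in fibrotic replicate 1, 0.21 in replicate 2 and 0.09 in the Hk2-deleted section. Mmp12 with Timp1 was at 0.07.

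The authors' deposited table gives Moran's I, a score that is higher where neighbouring spots have like values. In the authors' deposited table Mmp2 was at 0.126 in the Hk2-deleted liver, 0.114 and 0.118 in fibrotic replicates 1 and 2 and 0.00346 in the healthy liver. Only 5.65% of healthy spots held a Mmp2 UMI, against 42.9% to 60.3% of spots in the CCl4-treated sections. The part of such sparse counts in the score was not tested. The authors' deposited table placed Timp2 at rank 209 of 17028 genes, 224 of 17243 and 232 of 16301 in the CCl4-treated sections and at 1253 of 15352 in the healthy section. Mmp12 was at 0.0283, 0.0807 and 0.0412 in the CCl4-treated sections of the authors' deposited table. Timp1 was at 0.0480 in the Hk2-deleted section and at 9.83e-05 and -0.00505 in the fibrotic sections of the authors' deposited table.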

How the data were processed

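UMI counts per gene and spot were used as deposited by the authors, who ran Space Ranger 2.0.0 per the file headers; the submitters' processing notes name the build mm10, and the probe set is not given in the sources used here. Moran's I per gene, a score of spatial clustering, comes from a second table that the authors deposited, and its UMI totals were equal to those of the matrices for all genes listed. Counts were summed by section or by kind of spot, since spots are not replicates. Sums were tested across all genes with edgeR 4.0.16 in R 4.3.3 (TMM, filterByExpr, quasi-likelihood test, Benjamini-Hochberg adjustment, threshold 0.05), with section as a block for contrasts within sections. Genes that ranked the spots were left out of counts of calls. Alternatives were DESeq2 1.42.0, other scaling, no filter, other cut-offs or rankings of spots, and leaving out a section, surface spots or collagen-rich spots. The fits were tested on simulated counts with known changes. The landmark Cyp2a5 and the Kupffer gene Folr2 are not analysed here. Genes named are the 7 members, up to 4 called genes in each direction from a list of 31 other matrix protease and inhibitor genes (1 further gene of that list is not reported here), the 3 genes most like each member over tiles, and markers. Members and lists were chosen with earlier results of these data known. Each section is a separate mouse, and 2 of the 3 groups hold 1 mouse. Promoter windows are RefSeq's on GRCm38.p6, as are gene positions. Levels and exact intervals were computed with Python 3.11.15 and scipy 1.17.1.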

Additional observations from a re-analysis of the deposited data

Results flagged for a closer look

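The zone contrast of 4 members differed between CCl4-treated and healthy sections by an interaction term, with 1 healthy section: Mmp13 at 2.35, Mmp2 at 1.36, Timp2 at 1.24 and Mmp14 at 0.80 on the log2 scale, each steeper towards the central vein with CCl4. Of 26 other matrix protease genes tested, 5 differed in the same direction, among them Mmp17 (1.79), Ctsk (1.75), Ctss (1.26) and Pcolce (0.64), and 3 in the opposite one, where 8.26% and 10.4% of all genes were called. The 3 were Mmp19 (-0.41), Furin (-0.33) and Plg (-0.31).

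The concentration in collagen-rich spots differed between the Hk2-deleted and the fibrotic sections by an interaction term for Timp1 (1.79), Timp3 (0.55), Mmp2 (0.44) and Timp2 (0.43), and for Mmp9 (0.77) of the list. The Hk2-deleted group holds 1 section, in which 66.1% of collagen-rich spots were surface spots, against 49.0% and 2.33% in the fibrotic sections. No group had enough sections for a test of single outlying samples.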

How the results depend on the processing

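Whole sections of different groups were not paired, as each came from a separate mouse. Contrasts within sections had section as a block. With 1 or 2 sections in a group, leaving one out of the whole-section contrasts left values with no test, and low UMI counts limit Timp1, Mmp13 and healthy Mmp12. The same 6 members were counted higher in CCl4 fibrosis under all alternatives run, while the number of all genes called there was 1024 with DESeq2, against 1929. With library sizes in place of TMM, 1877 genes were higher and 206 lower, 90.1% higher, against 1362 and 567, 70.6%. The cause of the changes below was not tested.

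For Hk2 deletion in whole sections, 32 genes were called, against 21 with DESeq2, 126 with no filter, 113 by library size and 4 without surface spots. The members called lower, 1 in the reported fit, were 0 with DESeq2, with RLE size factors and without surface spots, and 2 with no filter. Mmp14 changed sign to -0.0041 with DESeq2, -0.0043 with RLE and -0.0837 without surface spots, and ranged from -0.17 to 0.21 when a fibrotic section was left out. Timp2 changed sign to 0.0090 by library size and ranged from -0.16 to 0.11 in the same way, and Timp1 was at -0.29 without surface spots.

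In the zone contrast, 1714 genes and 3 members were called, and with no filter 2200 of 17991 genes and 6 members higher. Leaving out a section gave 277 to 5532 genes and 2 to 6 members called, the highest without the healthy section. Without the other sections the genes called were 352 (without fibrotic replicate 1), 277 (without Hk2-deleted) and 289 (without fibrotic replicate 2). Timp3 was at -0.10 without collagen-rich spots and from -0.048 to 0.16 with a section left out. For the difference of the zone contrast with CCl4, 2494 genes were called, against 894 with DESeq2 and 1598 without collagen-rich spots, where 2 members of 4 were called and Timp1 was at -1.40.

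For the difference in collagen-rich spots with Hk2 deletion, 177 genes were called, against 5 with DESeq2, 79 in the top 20% of spots and 26 without surface spots. Members called higher were 0 with DESeq2, 1 in the top 5% and 1 in the top 20% of spots, and 0 without surface spots, where Mmp14 was at -0.24.

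Between fibroblast-rich and macrophage-rich spots, 1412 genes were called, against 380 with DESeq2, 807 without surface spots and 392 to 1256 with a section left out (392 without the Hk2-deleted section and 797 without fibrotic replicate 2). DESeq2 called 3 members and gave no adjusted p for the other 4, and 2 members were called lower with spots ranked by share. Mmp13 was at 0.12 without surface spots and from -0.71 to 0.060 with a section left out. Against Kupffer-rich spots, 4222 genes were called, against 1829 with DESeq2, and ranking by share gave Mmp12 at -0.17 and Mmp13 at -0.10.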
